A study of Mus musculus with 3 samples.

Results

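Hox genes encode homeodomain transcription factors that give cells a position along the body axis and the limbs. The 39 Hox genes of the mouse were chosen by symbol, as the letter of a cluster from A to D followed by a paralog group from 1 to 13, among the 32285 genes of the count matrices. Their expression was described in single cells of the inguinal fat pad, by cell class and by genotype.

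Hox genes lie in 4 clusters, and within each cluster the genes stand in the order of the body regions in which they are used. Low group numbers lie at the 3′ end and are used in anterior segments, and high group numbers lie at the 5′ end and are used in posterior segments and distal limb. Adult fibroblasts and vascular cells keep part of the pattern they had in the embryo, and fat depots are known to differ in it. Hox proteins bind DNA with TALE cofactors of the Pbx, Meis and Pknox families.

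The cells came from the inguinal stromal vascular fraction of 4-week-old mice, released with collagenase II, with dead (DAPI) and Cd45 immune cells removed by sorting. There was 1 library for each of 3 genotypes: Wild-type, Mgp-KO with global deletion of Mgp, and Pd-KO, in which a floxed Mgp allele was deleted by Pdgfra-cre. Mgp encodes matrix Gla protein, an extracellular inhibitor of BMP signaling and of calcification. Each library pooled mice of both sexes, so the genotypes had no replicate check and no p-value was computed. Cre under the Pdgfra promoter acts in Pdgfra-expressing cells, and Mgp was at 0.633 CPM (UMIs of the gene scaled to 1e+06 UMIs of the class) in Pd-KO stromal cells but at 472 CPM in Pd-KO mural cells. In Wild-type these levels were 522.5 and 306 CPM, and in Mgp-KO they were 1.91 and 0 CPM. With 10511 cells kept from Wild-type, 12575 from Mgp-KO and 8819 from Pd-KO, the libraries had median depths of 12802, 6445 and 8269 UMIs, and pairs of libraries shared 35 to 40 barcodes. A UMI marks 1 captured RNA molecule. Levels are therefore given as CPM without scaling by gene length. All intervals are 95% exact intervals that cover counting error only.

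The clusters were located in the GRCm38 annotation. HoxA (11 genes) spans chr6:52155590-52260880 on the minus strand, and HoxB (10 genes) spans chr11:96194316-96368256 on the plus strand. HoxC (9 genes) spans chr15:102921103-103036852 and HoxD (9 genes) spans chr2:74668310-74765142, both on the plus strand. RefSeq upstream windows were found for 22 of the 39 genes. The 250 bases before the start are shown for 5 genes with contrasting cell-class patterns below and no annotated exon in the window, from GRCm38.p6. Hoxb8 (chr11:96281655-96281904, plus strand) and Hoxd8 (chr2:74704365-74704614, plus strand) were higher in endothelial than in stromal cells, and Hoxb4 (chr11:96318017-96318266, plus strand) was found in all classes. Hoxd10 (chr2:74691641-74691890, plus strand) was highest in lymphatic endothelial cells, and Hoxa9 (chr6:52227371-52227620, minus strand) was higher in stromal than in endothelial cells. The Hoxa9 window lies inside the annotated span of the gene (chr6:52223100-52231089), so its start is not the 5′ end of that span. Capitals mark TTTATNG, the site known for posterior Hox proteins, searched on both strands:
Hoxb8: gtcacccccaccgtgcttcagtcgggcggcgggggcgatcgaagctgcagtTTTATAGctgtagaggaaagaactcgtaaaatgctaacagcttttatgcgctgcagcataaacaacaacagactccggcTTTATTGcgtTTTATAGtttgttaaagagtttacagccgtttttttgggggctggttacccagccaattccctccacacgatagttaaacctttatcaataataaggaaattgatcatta
Hoxd8: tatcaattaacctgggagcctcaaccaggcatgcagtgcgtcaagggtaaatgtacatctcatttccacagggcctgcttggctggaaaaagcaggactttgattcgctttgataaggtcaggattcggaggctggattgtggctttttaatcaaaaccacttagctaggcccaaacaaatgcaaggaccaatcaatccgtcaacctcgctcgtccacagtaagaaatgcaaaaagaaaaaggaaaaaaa
Hoxb4: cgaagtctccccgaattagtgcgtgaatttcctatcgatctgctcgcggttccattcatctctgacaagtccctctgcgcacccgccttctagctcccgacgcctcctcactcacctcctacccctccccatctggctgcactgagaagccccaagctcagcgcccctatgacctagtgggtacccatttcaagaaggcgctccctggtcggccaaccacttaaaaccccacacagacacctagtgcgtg
Hoxd10: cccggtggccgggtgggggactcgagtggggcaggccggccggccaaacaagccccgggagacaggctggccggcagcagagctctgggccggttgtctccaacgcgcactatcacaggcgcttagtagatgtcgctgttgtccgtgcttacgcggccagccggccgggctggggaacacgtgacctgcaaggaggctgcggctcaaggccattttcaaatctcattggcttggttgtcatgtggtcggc
Hoxa9: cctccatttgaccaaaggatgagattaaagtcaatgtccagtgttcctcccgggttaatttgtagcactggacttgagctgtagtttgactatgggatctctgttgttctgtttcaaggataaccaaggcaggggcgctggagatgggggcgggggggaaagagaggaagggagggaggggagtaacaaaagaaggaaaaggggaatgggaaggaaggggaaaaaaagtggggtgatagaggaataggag

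The Hoxb8 window held 3 matches to TTTATNG, which start 199, 120 and 110 bases before the gene. The other 4 windows shown held none. TTTATNG was found in 8.3% of the 24 Hox windows and in 9.8% of all 32851 windows. TGATTNAT, a site of Hox proteins with Pbx, was found in 8.3% of Hox windows and 2.8% of all windows. The Hox share was 2 of 24 windows, those of Hoxa2 and Hoxd11, and was not tested. TATAAA was found in 16.7% (4 windows) and 12.4%. The median number of CpG in a Hox window was 12, against 6 in all windows. Hoxd10 had 20 CpG and Hoxa9 had 3. These matches describe letters in the windows and no binding was measured.

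Of the 39 genes, 28 exceeded a floor of 3 UMIs in the cells of all 3 libraries. Another 8 were at or under it in all 3 libraries, namely Hoxa13, Hoxb13, Hoxc12, Hoxc13, Hoxd1, Hoxd11, Hoxd12 and Hoxd13. Hoxa13, Hoxc12, Hoxd12 and Hoxd13 were at 0 in all 3. Group 13, which marks distal limb and the end of the trunk, was thus not detectable above the floor at this depth. The other 3 genes were sparse. Hoxb1 had 3, 6 and 1 UMIs in Wild-type, Mgp-KO and Pd-KO, Hoxa11 had 10, 11 and 3, and Hoxd10 had 76, 2 and 17.

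Cells were clustered without Hox genes, so that Hox levels did not define the classes. Stromal cells (adipose progenitors and fibroblasts) numbered 7250, 11056 and 7003 in Wild-type, Mgp-KO and Pd-KO. Endothelial cells numbered 712, 220 and 654, mural cells (smooth muscle and pericytes) 901, 185 and 511, and epithelial cells, from the mammary ducts in this fat pad, 295, 638 and 114. Lymphatic endothelial cells numbered 82, 6 and 24. Sub-clusters carrying markers of a further class were set apart (388, 227 and 234 cells). Stromal RNA in other classes was read from 6 stromal genes (Pdgfra, Lum, Clec3b, Pi16, Dpt and Mfap5). Their median level in endothelial cells was 7.63% of the stromal level in Wild-type, 1.59% in Mgp-KO and 1.95% in Pd-KO. In mural cells it was 7.70%, 1.11% and 1.31%, and in epithelial cells 4.11%, 1.04% and 0.83%.

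The summed Hox level was higher in endothelial and mural cells than in stromal cells, and was lowest in epithelial cells. In Wild-type, endothelial cells had 472.6 CPM (453.9 to 491.8), mural cells 497.4 CPM (479.8 to 515.5), stromal cells 337.4 CPM (333.9 to 340.9) and epithelial cells 88.2 CPM (80.7 to 96.2). In Mgp-KO the endothelial, mural, stromal and epithelial levels were 414.3, 447.4, 301.1 and 61.3 CPM. In Pd-KO they were 460.9, 623.7, 338.3 and 80.0 CPM. The intervals of endothelial and mural cells overlapped in Wild-type and Mgp-KO, and mural cells stood above endothelial cells in Pd-KO. The log2 ratio of stromal over endothelial cells in Wild-type was -0.49 (-0.55 to -0.43). It was -0.56 (-0.61 to -0.51) over mural cells and 1.94 (1.81 to 2.06) over epithelial cells.

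HoxC led in stromal and mural cells, and HoxB in endothelial and epithelial cells. In Wild-type stromal cells HoxC held 63.6% of Hox UMIs, HoxA 17.7%, HoxB 16.6% and HoxD 2.24%. The HoxC share of stromal cells was 60.2% in Mgp-KO and 58.7% in Pd-KO. In endothelial cells HoxC held 3.0%, 0.6% and 1.2% in Wild-type, Mgp-KO and Pd-KO, whereas HoxB held 46.2%, 44.4% and 47.4% and HoxD 25.5%, 27.1% and 27.1%. Endothelial cells thus held mainly HoxB, HoxD and HoxA, and little HoxC. In Wild-type endothelial cells Hoxc4 to Hoxc10 were at 5.54% to 8.07% of their stromal levels. The 6 stromal genes were there at 5.72% to 10.5%. Mural cells held HoxC at 52.9%, 42.0% and 51.4% and HoxB at 26.7%, 36.9% and 32.9%. Epithelial cells held almost only HoxB, at 85.8%, 96.6% and 96.8%. Stray stromal RNA was higher in Wild-type than in the knockouts, and its part in these shares was not tested.

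**Figure D1:**
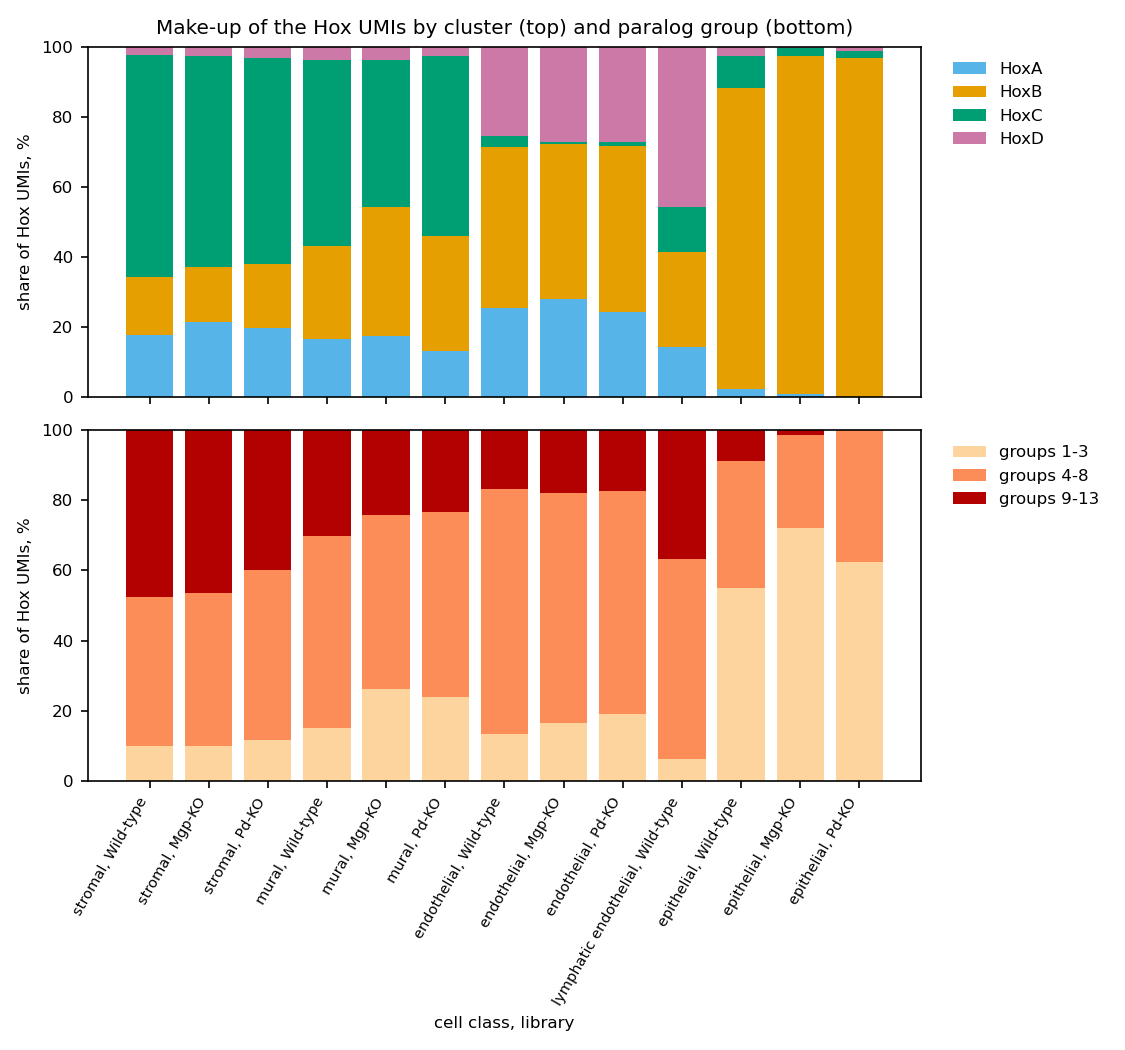
Share of Hox UMIs by cluster (A to D, top) and by paralog groups 1 to 3, 4 to 8 and 9 to 13 (bottom) in each cell class and library, in percent; lymphatic endothelial cells are shown for Wild-type. The HoxC share is largest in stromal cells (63.6% in Wild-type) and at most 3.0% in endothelial cells.

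The share of posterior groups also differed by class. Groups 9 to 13 held 47.5% of stromal Hox UMIs in Wild-type, 46.4% in Mgp-KO and 39.9% in Pd-KO. In mural cells they held 30.0%, 24.2% and 23.2%, and in endothelial cells 16.9%, 17.9% and 17.3%. Stromal cells had the most posterior makeup of these classes in each library. In epithelial cells groups 1 to 3 held 55.1%, 72.1% and 62.4%, and groups 9 to 13 held 8.7%, 1.2% and 0%. Wild-type epithelial Hoxa9, Hoxa10, Hoxc9 and Hoxc10 were at 3.17% to 4.48% of their stromal levels. The 6 stromal genes were there at 2.78% to 5.16%. The part of stray stromal RNA in the Wild-type share was not tested.

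To compare detection at equal depth, each cell was thinned to 2000 UMIs. At this depth 48.4% of Wild-type stromal cells had at least 1 Hox UMI, against 60.7% of endothelial, 61.0% of mural and 12.9% of epithelial cells. Without thinning these shares were 94.5%, 89.7%, 90.1% and 72.5%. The thinned shares in the same order were 44.5%, 59.1%, 56.8% and 10.8% in Mgp-KO (81.2%, 75.9%, 75.1% and 36.1% without thinning) and 48.8%, 57.6%, 67.7% and 12.3% in Pd-KO (89.8%, 80.9%, 86.9% and 47.4%). As a reading of stray RNA, thinned Pdgfra was found in 41.8% of Wild-type stromal cells and in 5.20% of endothelial, 4.99% of mural and 2.71% of epithelial cells. The thinned share with Hoxc10 was 12.7% in stromal, 11.2% in mural and 0.56% in endothelial cells. Hoxd9 was found in 8.29% of Wild-type endothelial and 0.30% of stromal cells. Pdgfra was found in more stromal cells than Hoxc10, so their shares in other classes do not compare directly. Relative to its own stromal CPM, Wild-type Hoxc10 was at 6.48% in endothelial and 83.4% in mural cells. The medians of the 6 stromal genes there were 7.63% and 7.70%.

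**Figure D2:**
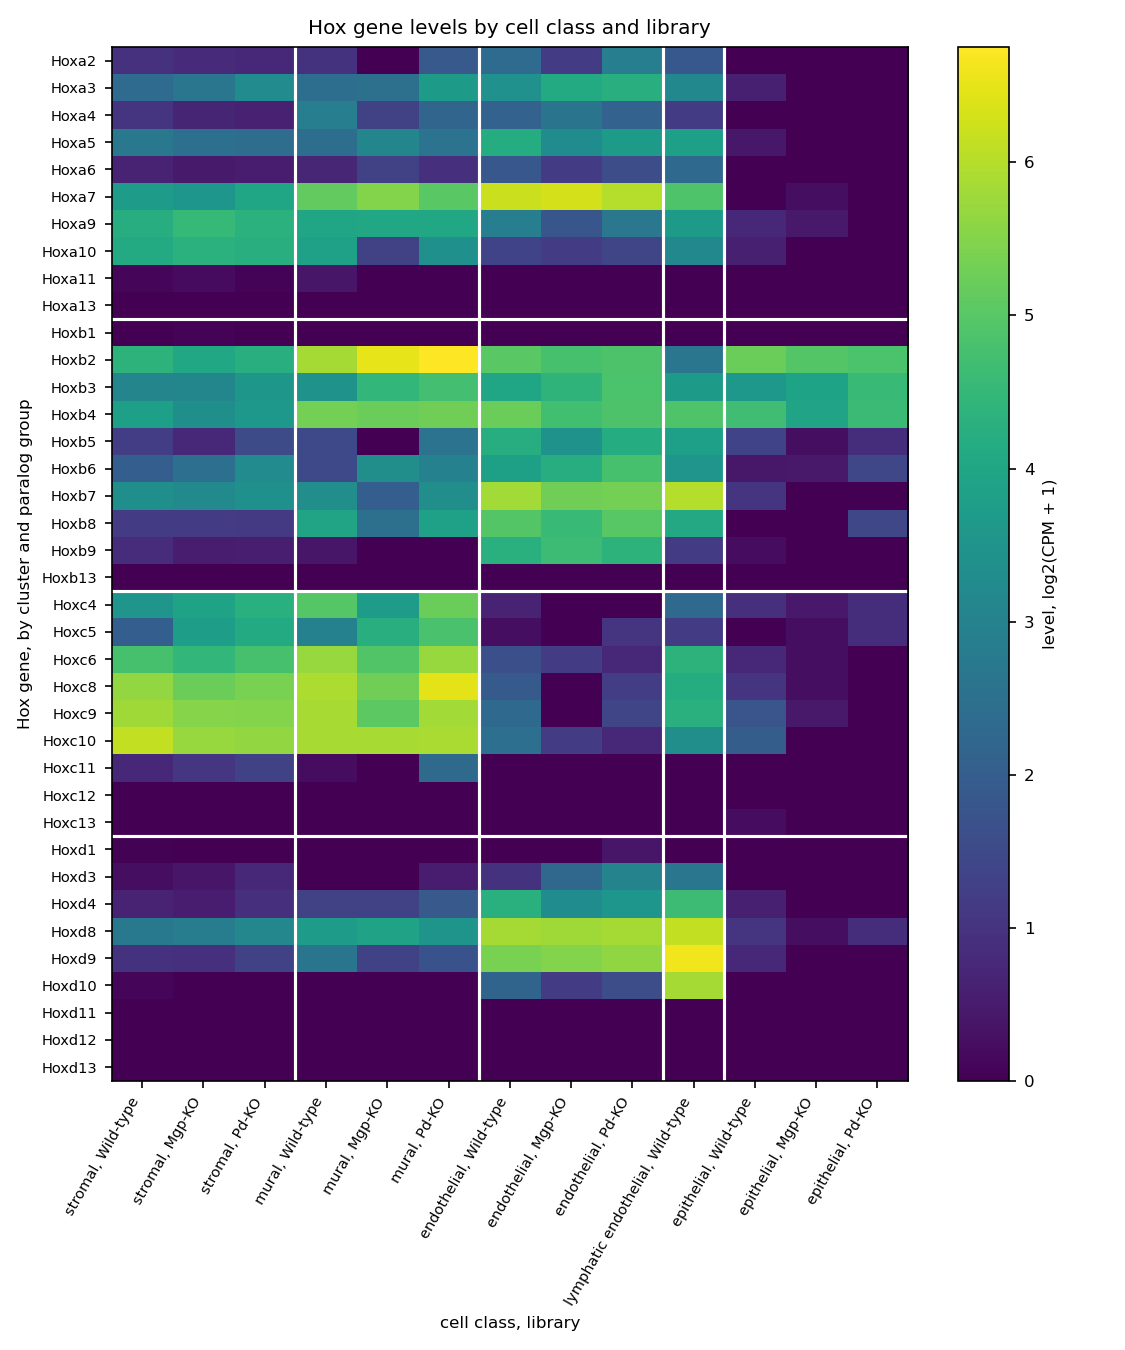
Level of each Hox gene shown, colored by log2(CPM + 1), by cell class and library, ordered by cluster and paralog group; lymphatic endothelial cells are shown for Wild-type. HoxC genes stand out in stromal and mural cells, and HoxB and HoxD genes in endothelial cells.

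In stromal cells the 3 highest members were neighbours in HoxC. Hoxc10, a gene of the lumbar and hindlimb region, was at 69.5 CPM in Wild-type, 51.0 in Mgp-KO and 49.9 in Pd-KO. Hoxc9, which acts at the thoracic to lumbar boundary, was at 54.3, 45.0 and 44.4 CPM. Hoxc8, a thoracic gene, was at 49.5, 36.7 and 41.0 CPM. Wild-type was highest for all 3 genes. Levels fell off on both sides of this block, to 26.7, 21.2 and 26.7 CPM for Hoxc6 and to 0.73, 1.09 and 1.53 CPM for Hoxc11. The anterior Hoxc4 was at 10.6, 13.9 and 18.5 CPM, and Hoxc5 at 3.08, 12.5 and 16.6 CPM.

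HoxA and HoxB were at lower stromal levels, highest at Hoxa9 and at Hoxb2. In Wild-type, Hoxb4 and Hoxb7 also stood above their neighbours, so HoxB had no single peak. Hoxa9 and Hoxa10, the paralogs of Hoxc9 and Hoxc10, were at 17.5 and 16.4 CPM in Wild-type, 22 and 19.0 in Mgp-KO, and 18.9 and 18.1 in Pd-KO. Hoxa7 was at 12.2, 10.8 and 14.8 CPM in Wild-type, Mgp-KO and Pd-KO. Hoxb2, an anterior gene with a hindbrain role, was at 19.7, 15.2 and 17.8 CPM. Hoxb4 was at 13.1, 9.28 and 11.2 CPM, and Hoxb7 at 9.22, 8.45 and 9.43 CPM. The paralogs Hoxb9 (0.80 CPM in Wild-type) and Hoxd9 (0.99 CPM) were far below Hoxc9 and Hoxa9 in the same cells. Within HoxD, Hoxd8 led stromal cells at 5.67, 6.24 and 7.76 CPM. Hoxb3 was at 7.40, 7.53 and 10.9 CPM, Hoxa5 at 5.51, 4.51 and 4.31, Hoxa3 at 4.14, 5.30 and 8.58, and Hoxb6 at 3.03, 4.56 and 8.60 CPM. Hoxa2, Hoxa4, Hoxa6, Hoxb5, Hoxb8, Hoxb9, Hoxc11, Hoxd3, Hoxd4 and Hoxd9 were at or below 1.94 CPM in stromal cells of each library.

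Endothelial cells had another set. Hoxa7 was highest, at 73.7 CPM in Wild-type, 79.3 in Mgp-KO and 63.4 in Pd-KO. Hoxd8 was at 56.2, 54.1 and 56 CPM, and Hoxb7 at 55.1, 37.8 and 39.6 CPM. Hoxd9 was at 41.1, 44.1 and 48.6 CPM. Hoxb8, whose upstream window holds the 3 TTTATNG matches, was at 30.0, 22.7 and 31.2 CPM, and Hoxb9 at 18.6, 23.9 and 19.8 CPM. Hoxb5 was at 17.6, 10.1 and 17.1 CPM, and Hoxd4 at 18.4, 8.81 and 10.7 CPM. Each of these genes was far lower in stromal cells of every library. Hoxc10 was at 4.51 CPM (23 UMIs) in Wild-type endothelial cells, 1.26 CPM (1 UMI) in Mgp-KO and 0.67 CPM (2 UMIs) in Pd-KO. This was 6.48% of the Wild-type stromal level, near the 7.63% read from the stromal genes.

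Between stromal and endothelial cells, 8 of 24 members tested were at least 2-fold higher in stromal cells in all 3 libraries, against 10.3% of all genes. These were Hoxa9, Hoxa10, Hoxc4, Hoxc5, Hoxc6, Hoxc8, Hoxc9 and Hoxc10, the 6 measured HoxC genes of groups 4 to 10 among them. Another 11 of 24 were at least 2-fold lower in stromal cells, against 10.7% of all genes. These were Hoxa3, Hoxa7, Hoxb3 to Hoxb9, Hoxd8 and Hoxd9. The log2 ratio of Hoxc10 was 3.95, 5.34 and 6.22 in Wild-type, Mgp-KO and Pd-KO, and that of Hoxc6 was 3.63, 4.07 and 5.32. That of Hoxd9 was -5.37, -5.61 and -5.01, that of Hoxb9 -4.53, -5.69 and -5.37, and that of Hoxb8 -4.59, -4.15 and -4.68. Opposite signs were thus found within group 9, where Hoxa9 was at 1.44, 3.13 and 1.82. Hoxc8 and Hoxc9 had 0 UMIs in Mgp-KO endothelial cells and were at least 9.72-fold and 11.9-fold higher in Mgp-KO stromal cells, set against a floor of 3 UMIs. Hoxb2 was shared by both classes, with log2 ratios of -0.68, -0.80 and -0.66. In Wild-type the ratio of Hoxb9 was -3.73 in female and -5.61 in male cells.

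**Figure D3:**
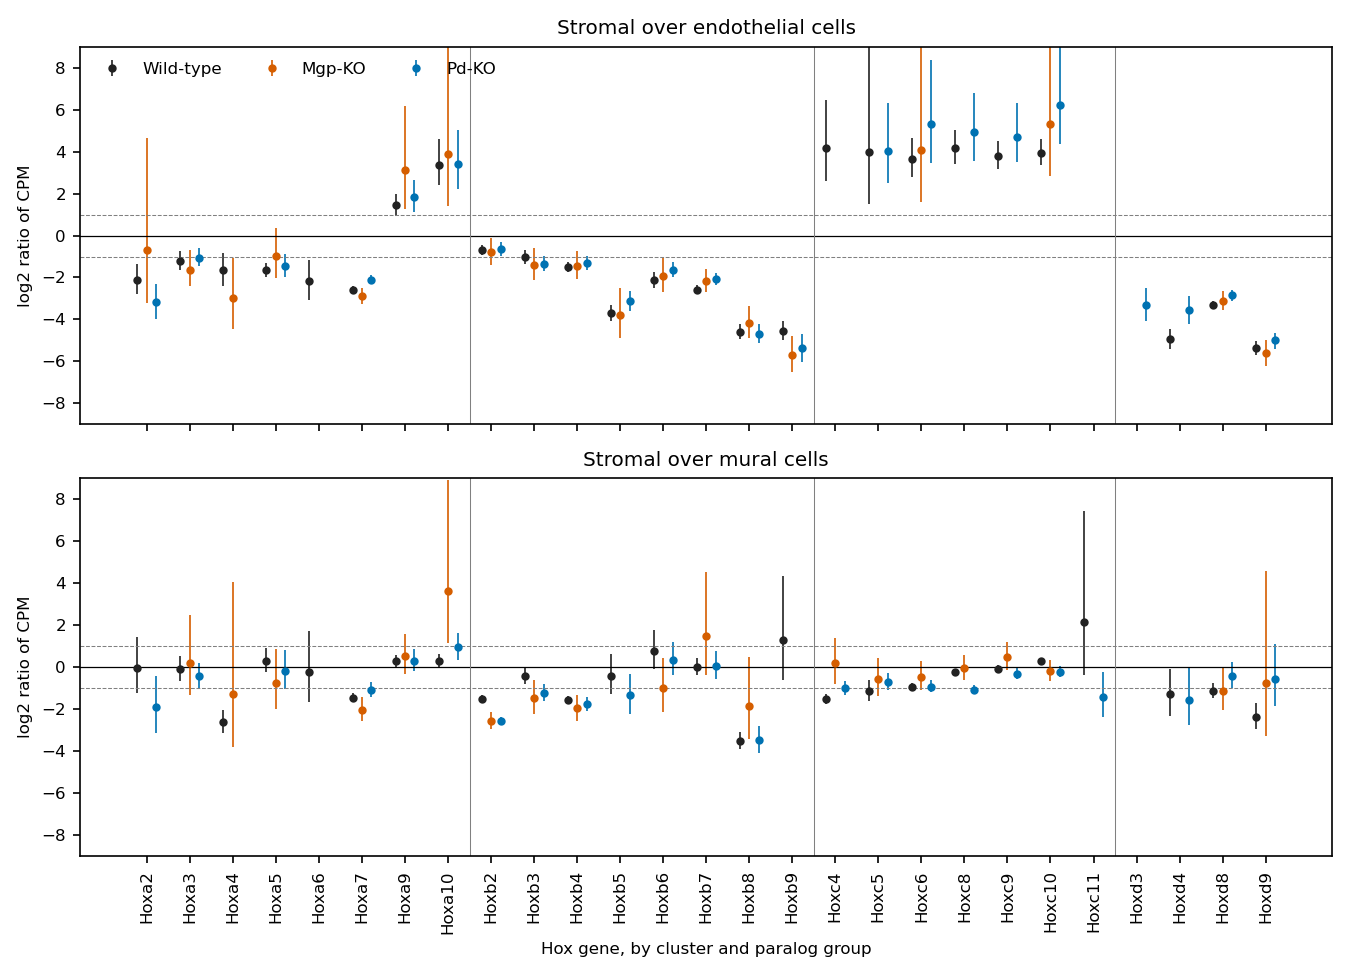
Log2 ratio of stromal over endothelial cells (top) and over mural cells (bottom) for the Hox genes shown, tested with both counts above 0, colored by library, with 95% exact intervals, some of which run past the axis; dashed lines mark 2-fold. Against endothelial cells HoxC genes lie above 0 and HoxB and HoxD genes below 0, and against mural cells Hoxc10 lies near 0 (0.26 in Wild-type).

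Mural cells shared the stromal HoxC block. Hoxc10 was at 58.0, 58.0 and 58.2 CPM in Wild-type, Mgp-KO and Pd-KO mural cells, or 83.4%, 114% and 117% of the stromal level, far above the 7.70%, 1.11% and 1.31% of the stromal genes. Its log2 ratio of stromal over mural cells was 0.26, -0.19 and -0.22, and that of Hoxc9 was -0.08, 0.49 and -0.32. No member of 23 was at least 2-fold higher in stromal cells in all 3 libraries, against 7.51% of all genes. Lower in stromal cells were 3 of 23 members, Hoxa7, Hoxb2 and Hoxb4, against 8.5% of all genes. Hoxb2 was the most abundant mural member in Mgp-KO and Pd-KO, at 56.2, 90.1 and 107.0 CPM, with log2 ratios of -1.51, -2.57 and -2.59. Hoxb4 was at 39.3, 36.6 and 37.9 CPM with ratios of -1.59, -1.98 and -1.76, and Hoxa7 at 34.0, 44.3 and 31.6 CPM with ratios of -1.47, -2.04 and -1.10. Hoxb8 had ratios of -3.53, -1.85 and -3.47, but its Mgp-KO mural value rested on 3 UMIs. In Pd-KO mural cells outside a pericyte-like sub-cluster led by Ednrb, Hoxc8 (89.6 CPM) stood above Hoxb2 (64.9 CPM).

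Epithelial cells held 3 HoxB genes and little else. Hoxb2 was at 37.0, 30.0 and 27.5 CPM, Hoxb4 at 24.5, 14.4 and 23.2 CPM, and Hoxb3 at 11.1, 14.2 and 22.4 CPM. Each of the other members was at or below 2.95 CPM in every library. Of 22 members, 14 were at least 2-fold higher in stromal than epithelial cells in all 3 libraries, against 14% of all genes, and 0 were lower, against 12%. The 14 were Hoxa3, Hoxa5, Hoxa7, Hoxa9, Hoxa10, Hoxb6, Hoxb7, Hoxd8 and the 6 HoxC genes from Hoxc4 to Hoxc10. Among those not at 0 in epithelial cells, Hoxc4 had log2 ratios of 3.61, 5.19 and 4.43, Hoxd8 2.44, 5.04 and 3.17, and Hoxb6 3.13, 3.59 and 2.32. Hoxb6 rested on 2 epithelial UMIs in Wild-type, and its ratio was 0.03 in male cells alone. Hoxb3 had ratios of -0.59, -0.92 and -1.04, Hoxb2 -0.91, -0.98 and -0.63, and Hoxb4 -0.90, -0.64 and -1.05. These 3 genes were therefore higher in epithelial cells in each library without passing 2-fold in all 3. Hoxc10 was at 0 in epithelial cells of both knockouts and was at least 89.5-fold higher in stromal cells of Mgp-KO and 19.3-fold in Pd-KO.

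Lymphatic endothelial cells carried Hoxd10. Mural and epithelial cells had 0 Hoxd10 UMIs in all 3 libraries. It was at 56.4 CPM (40.8 to 76.0, 43 UMIs) in the 82 Wild-type cells and at 49.9 CPM (8 UMIs) in the 24 Pd-KO cells, against 3.53 and 2.01 CPM in endothelial cells of these libraries. Hoxd10 is a gene of the lumbar region and hindlimb, and its upstream window had the most CpG of those shown. Hoxd9 was at 95.8 CPM (75.1 to 120) and Hoxd8 at 69.5 CPM (52.1 to 90.9) in Wild-type, and at 62.4 and 56.2 CPM in Pd-KO. HoxD held 45.7% of the Hox UMIs of these cells in Wild-type. Stromal genes were at 21.6% of the stromal level in Wild-type and 29.2% in Pd-KO lymphatic cells, and Hoxd10 was at 0.07 and 0.02 CPM in stromal cells.

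Stromal cells were divided into 7 subsets named by fixed markers and leading genes: Col18a1 stromal-like, Areg-like, Ccn5 fibroblast-like, 2 preadipocyte-like (led by Cited1 and by Cxcl9) and 2 interstitial progenitor-like (led by Pi16 and by Limch1). Summed Hox levels ran from 302.4 CPM in the Pi16 progenitors to 361.3 CPM in Col18a1 cells in Wild-type, from 275.3 to 344.8 CPM in Mgp-KO and from 288.0 to 392.8 CPM in Pd-KO. The Col18a1 subset was highest in each library. The share of groups 9 to 13 ran from 42.4% to 51.4% in Wild-type, 42.0% to 52.4% in Mgp-KO and 34.6% to 48.4% in Pd-KO.

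Each subset was set against the other stromal cells, over 22 members. Of these, 0 passed 2-fold in all 3 libraries in the Col18a1 subset (all genes 9.05%), the Cited1 preadipocytes (3.89%), the Ccn5 fibroblasts (2.9%), the Pi16 progenitors (7.05%) and the Limch1 progenitors (7.96%). In the Cxcl9 preadipocytes 1 member passed, Hoxd9, lower (all genes 5.62%). In the Areg-like subset, cells described as regulators of adipogenesis, 2 members passed, Hoxd8 and Hoxd9, both higher (all genes 6.14%).

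Hoxd8 was at 13.4, 14.0 and 16.9 CPM in Areg-like cells of Wild-type, Mgp-KO and Pd-KO. In the Cxcl9 preadipocytes it was at 1.92, 3.96 and 2.23 CPM. Hoxd9 was at 2.15, 4.75 and 3.65 CPM in Areg-like cells and 0.37, 0.30 and 0.59 CPM in the Cxcl9 preadipocytes. Both neighbours in HoxD were thus highest in the Areg-like subset. The log2 ratio of Hoxd9 over the other stromal cells was 1.33, 2.83 and 1.43 in the Areg-like subset and -2.58, -1.47 and -2.78 in the Cited1 preadipocytes. In the latter Hoxd9 did not pass in all 3 libraries. Its median ratio over libraries was -1.38 in the Col18a1 subset, where it was 0.28 in female Wild-type cells alone, and 0.84 in the Pi16 progenitors. The ratios of Hoxd8 were -1.79, -0.76 and -1.95 in the Cxcl9 preadipocytes, with a median of -0.93 in the Cited1 preadipocytes. These stromal levels remained below those of endothelial cells.

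Further members differed between subsets, and those at low CPM, like Hoxd9 above, rested on few UMIs. None of the members that follow passed 2-fold in all 3 libraries in any subset. Hoxa9 was highest in the Col18a1 subset at 22.4, 33.8 and 31.1 CPM, with log2 ratios of 0.44, 0.78 and 0.78, and was at 10.2, 14.0 and 15.1 CPM in Areg-like cells. Hoxc10 was at 84.2, 61.8 and 60.7 CPM in the Col18a1 subset and 47.5, 40.7 and 42.7 CPM in the Limch1 progenitors. Hoxc11, the most posterior HoxC gene above the floor, was at 1.69, 1.93 and 2.15 CPM in the Limch1 progenitors with ratios of 1.52, 1.37 and 0.93. Its level in the Col18a1 subset was 0.45, 0.39 and 0.48 CPM. Hoxc10 and Hoxc11 thus stood in opposite order in these subsets. Hoxb2 was at 27.3, 20.9 and 27.7 CPM in the Pi16 progenitors and 14.4, 9.63 and 14.4 CPM in the Cxcl9 preadipocytes. Hoxa3 had ratios of -0.76, -1.09 and -1.60 and Hoxb3 of -0.21, -1.01 and -1.07 in the Pi16 progenitors. Hoxb8 had ratios of -1.91, -1.55 and -1.48 in Areg-like cells, at 0.36, 0.45 and 0.46 CPM, and medians of 1.19 in the Cited1 preadipocytes and -0.76 in the Limch1 progenitors. The median ratio of Hoxc11 was -1.54 in Areg-like cells. In the Ccn5 fibroblasts the median ratio over libraries was -0.66 for Hoxa5 and 0.31 for Hoxa10, and in Wild-type alone that of Hoxa5 was 0.08 in female cells and that of Hoxa10 -0.28 in male cells. The median ratio of Hoxb5 was -0.80 in the Cxcl9 preadipocytes and 0.53 in the Limch1 progenitors.

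**Figure D4:**
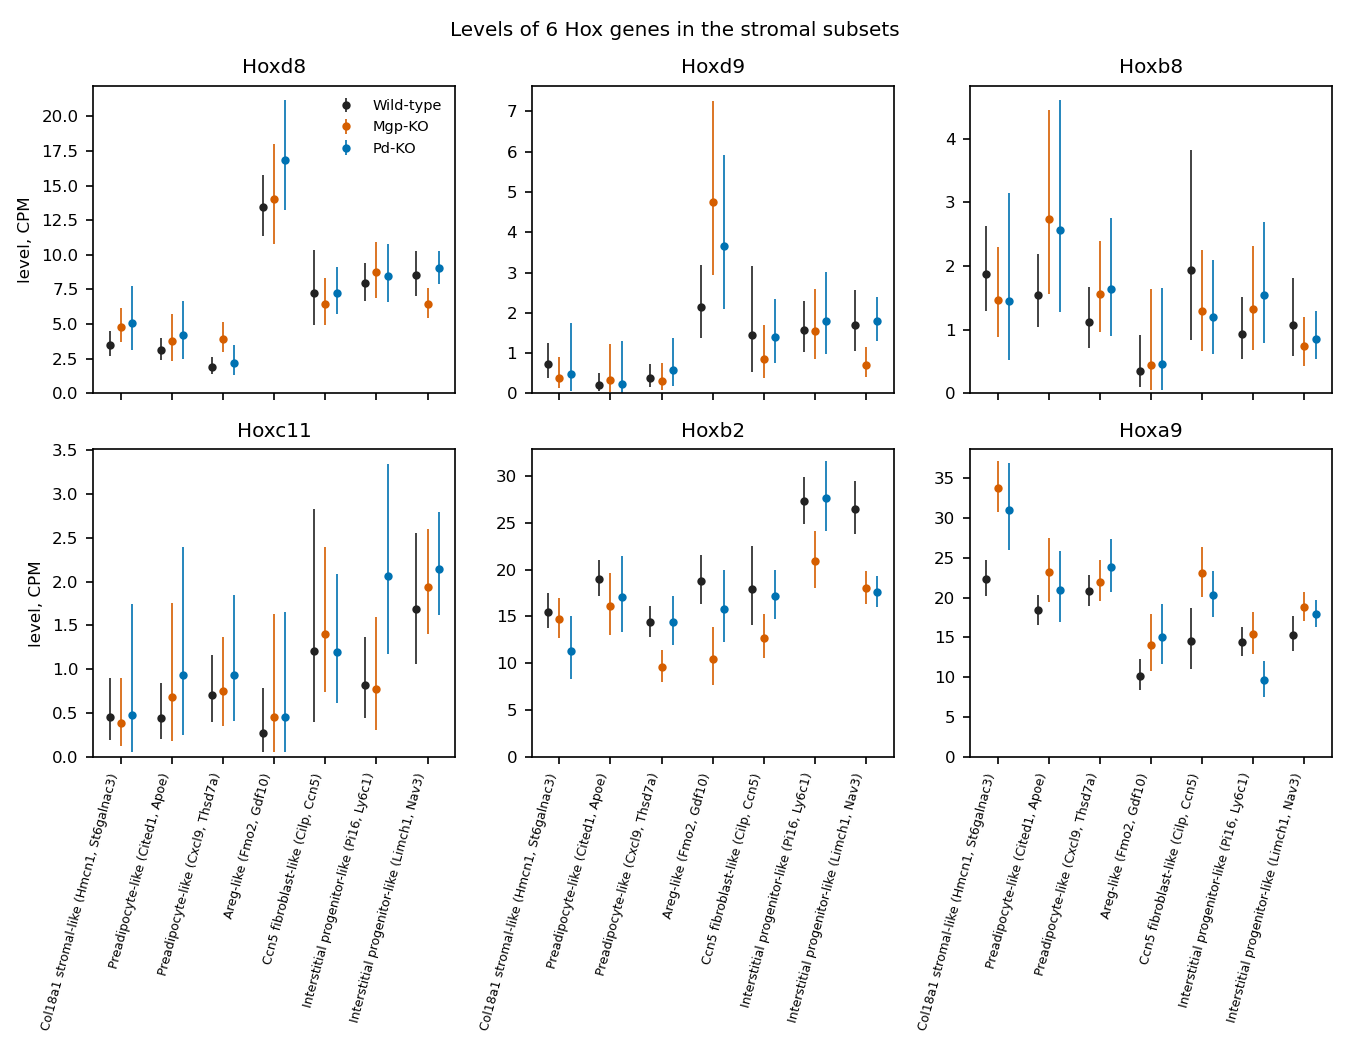
Levels of 6 Hox genes (CPM) in the 7 stromal subsets by library, with 95% exact Poisson intervals. Hoxd8 and Hoxd9 are highest in the Areg-like subset, where Hoxd8 is at 13.4, 14.0 and 16.9 CPM, and Hoxa9 is highest in the Col18a1 subset.

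In the pericyte-like sub-cluster led by Ednrb and Adgrg6, Hoxb2 was at 155, 129 and 166 CPM in Wild-type, Mgp-KO and Pd-KO, against 50.7, 73.6 and 64.9 CPM in the other mural cells. Hoxc8 in Wild-type ran from 30.3 CPM in smooth muscle-like cells led by Pln and Pgam2 to 128 CPM in those led by Colec11 and Csmd1. In endothelial cells led by Selp and Ackr1, genes of venules, Hoxd9 was at 72.3, 48.8 and 122 CPM, where the Mgp-KO value rested on few UMIs. Hoxd9 was at 21.5, 34.6 and 28.9 CPM in those led by Hbb-bs and Mdga2. Hoxb8 was at 53.8, 34.8 and 46.7 CPM in those led by Car4 and Timp4, genes of capillaries, and at 12.1 CPM in Wild-type cells led by Glycam1 and Ccl21a. Among the epithelial cells, Hoxb2 was at 43.7, 35.2 and 41.5 CPM in luminal-like cells led by Smim38 and Pcp4. Basal-like epithelial cells had Hoxc10 at 20.9 CPM (11 UMIs) in Wild-type and 0 UMIs in both knockouts. They numbered 40, 146 and 21, and stray stromal RNA was not read for this sub-cluster on its own.

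The genotype comparisons shared the Wild-type library as control. The Wild-type header names Cell Ranger 4 and both knockout headers name 7.1.0, so software version and genotype cannot be told apart in a ratio to Wild-type. In stromal cells the summed Hox level differed little, with a log2 ratio of -0.16 (-0.19 to -0.14) for Mgp-KO over Wild-type and 0.00 (-0.02 to 0.03) for Pd-KO over Wild-type. Past 2-fold was 1 of 27 members in Mgp-KO, against 23.6% of all genes, and 6 of 28 in Pd-KO, against 28.8%. Both shares of members lay below those of all genes, and this difference was not tested. Shares by annotated intron length are given below. The median ratio of the members was -0.27 in Mgp-KO and 0.07 in Pd-KO, where all genes had 0.17 and 0.22. Between the knockouts, whose headers name the same version, 3 of 28 members passed, against 8.58% of all genes. In Wild-type, 2488 stromal cells were called female and 2744 male. These numbers were 6586 and 1702 in Mgp-KO and 2221 and 2924 in Pd-KO. Female and male stromal cells of Wild-type differed past 2-fold in 1 of 25 members, Hoxb9 (1.51, higher in female), against 347 of 13134 genes. In Mgp-KO 0 of 20 members differed, against 660 of 13658 genes, and in Pd-KO 0 of 21, against 301 of 13201 genes.

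The 3 most abundant HoxC genes were at lower levels in both knockouts, whereas Hoxc11 was at higher levels. Hoxc10 had log2 ratios of -0.45 and -0.48, Hoxc9 of -0.27 and -0.29 and Hoxc8 of -0.43 and -0.27 in Mgp-KO and Pd-KO, within 2-fold. These 3 genes have 3.19, 6.23 and 0.67 kb of introns, and all genes under 10 kb had medians of -0.11 and -0.20. The Limch1 progenitors, low in Hoxc10, were 8.88%, 22.1% and 27.9% of kept cells in Wild-type, Mgp-KO and Pd-KO. The Col18a1 subset, high in Hoxc10, was 9.74%, 12.1% and 4.76%. The part of subset make-up in these ratios was not tested. Hoxa9 was at 0.33 and 0.11. Hoxc5 had the largest ratios, 2.02 (1.84 to 2.21) and 2.43 (2.25 to 2.61), and 0.41 between the knockouts. In the annotation Hoxc5 begins inside Hoxc10, shares 166 bp of exon with it, has 46.9 kb of introns and holds Hoxc6, Hoxc8 and Hoxc9 within its span. How reads were assigned among these genes is therefore uncertain. In Pd-KO, Hoxd3 (1.89), Hoxb6 (1.5), Hoxc11 (1.07) and Hoxa3 (1.05) were higher and Hoxa4 (-1.0) was lower. With equal weight for each stromal subset, the Hoxc11 ratio was 0.55. In Mgp-KO, Hoxb5 was at -0.91, Hoxb9 at -0.79, Hoxa4 at -0.74 and Hoxc11 at 0.59, without passing. Between the knockouts Hoxb5 (1.43), Hoxd4 (1.10) and Hoxd3 (1.08) were higher in Pd-KO. Hoxd3 and Hoxd4 share 388 bp of exon, and how reads were assigned between them is not known.

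Ratios to Wild-type moved with annotated intron length. Over all genes with at least 10 kb of introns the stromal medians were 0.40 in Mgp-KO and 0.51 in Pd-KO, and 29.9% and 34.8% passed 2-fold. For genes with less, the medians were -0.11 and -0.20, and 12.2% and 18.1% passed. Members followed, with medians of 0.19 and 0.81 above 10 kb and -0.27 and -0.15 below it. Above 10 kb, 1 of 6 members passed in Mgp-KO and 3 of 7 (42.9%) in Pd-KO, the latter above the share of all genes. Below 10 kb, 0 of 21 members passed in Mgp-KO and 3 of 21 (14.3%) in Pd-KO. The study's methods name default settings and not how intronic reads were counted, and the part of such reads in these ratios was not tested. The median of 200 genes of like span was then taken off. Members at least 2-fold off after this were counted by size alone, without an interval. The share of all genes after this step was not computed, for the members or for the lists below. In Mgp-KO 1 of 27 members reached 2-fold, Hoxc5 (1.65). In Pd-KO 4 of 28 reached it, Hoxc5 (1.91), Hoxb6 (1.71), Hoxd3 (1.57) and Hoxc11 (1.38), whereas Hoxa3 was at 0.57 and Hoxa4 at -0.72. Between the knockouts 4 of 28 reached it, Hoxb5 (1.53), Hoxd4 (1.10), Hoxb6 (1.01) and Hoxd3 (1.01).

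**Figure D5:**
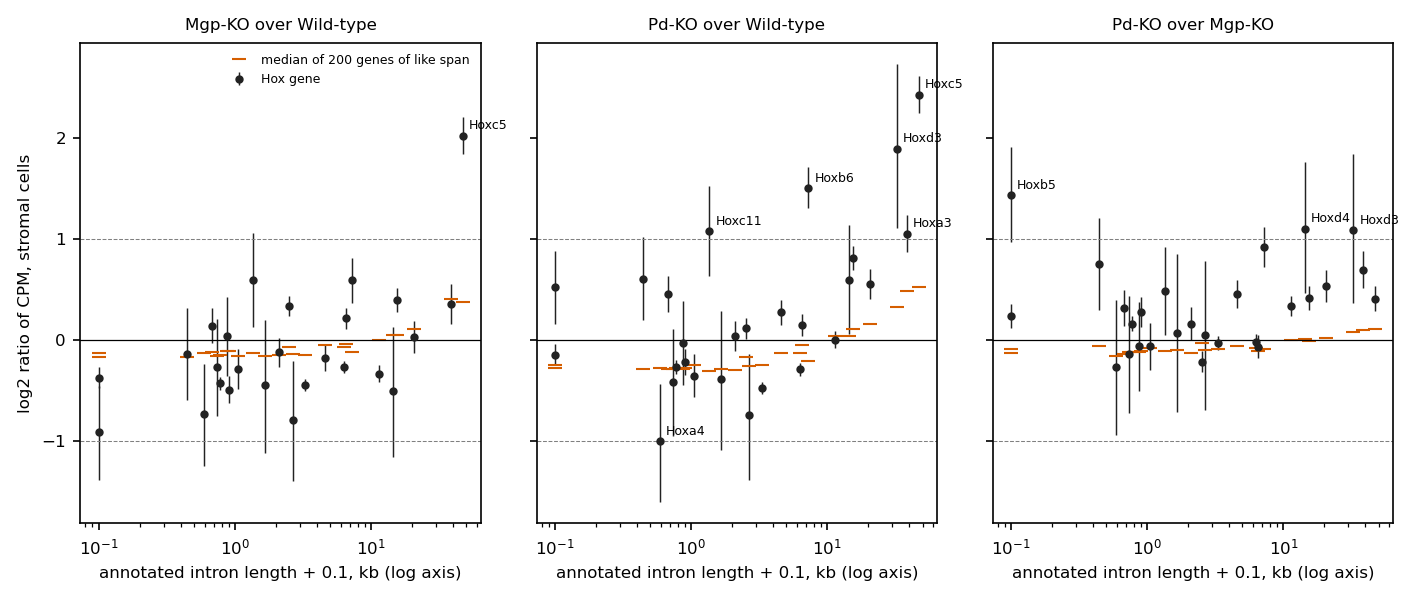
Log2 ratio of the Hox genes shown in stromal cells against its annotated intron length (kb, log axis after adding 0.1 kb) for Mgp-KO over Wild-type, Pd-KO over Wild-type and Pd-KO over Mgp-KO, with 95% exact intervals; orange dashes mark the median of 200 genes of like span. Hoxc5 lies at 2.02 and 2.43 over Wild-type and at 0.41 between the knockouts.

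In mural cells, 5 of 15 members passed in Mgp-KO (all genes 12.4%) and 3 of 16 in Pd-KO (all genes 23.5%). Hoxc5 (1.44 and 2.00) and Hoxb3 (1.11 and 1.38) were higher in both knockouts, and Hoxa3 (1.40) in Pd-KO. Hoxc5, Hoxb3 and Hoxa3 have 46.9, 20.35 and 38.26 kb of introns, and stromal ratios to Wild-type moved with intron length. Ratios in mural, endothelial and epithelial cells were not adjusted for gene span. As in any ratio to Wild-type, adjusted or not, genotype and software version cannot be told apart in them. Without the pericyte-like sub-cluster led by Ednrb, Hoxb3 was at 0.99 (-0.30 to 2.08) in Mgp-KO, where it no longer passed, and at 1.20 (0.46 to 1.92) in Pd-KO. Hoxa10 (-3.15, 1 UMI against 82), Hoxb8 (-1.65, 3 UMIs) and Hoxc4 (-1.32) were lower in Mgp-KO. Without that sub-cluster Hoxc4 was at -1.01 (-2.34 to 0.06) and no longer passed, and Hoxc6 was at -1.11 (-2.13 to -0.25). Hoxc8 was then at -0.86 (-1.72 to -0.12), Hoxc9 at -0.81 (-1.66 to -0.06) and Hoxc10 at 0.21 (-0.37 to 0.74) in Mgp-KO. Over all mural cells Hoxc10 was at 0.00 and 0.01 in Mgp-KO and Pd-KO. Hoxb2 was at 0.68 and 0.93. This sub-cluster, in which Hoxb2 was high, made up 4.44% of the mural cells in Wild-type, against 25.9% in Mgp-KO and 36.4% in Pd-KO. Without it, Hoxb2 was at 0.54 (-0.02 to 1.05) and 0.35 (-0.01 to 0.71), and both intervals included 0. Leaving it out removed 48 of 185 mural cells in Mgp-KO and 186 of 511 in Pd-KO, and fewer counts also widen intervals. In endothelial cells 0 of 14 members passed in Mgp-KO (all genes 10.4%) and 1 of 14 in Pd-KO, Hoxb6 at 1.01 (all genes 18.3%). In epithelial cells 0 of 3 passed in Mgp-KO (all genes 18.4%) and 1 of 3 in Pd-KO, Hoxb3 at 1.01 (all genes 23.5%).

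Genes that act with or near the Hox clusters were described from lists. Of 9 TALE cofactors, 5 were higher in stromal than endothelial cells in all 3 libraries (Meis1, Meis2, Meis3 and Pknox2 among them), 2 higher than in mural cells (Meis1 and Pknox2) and 2 higher than in epithelial cells (Meis2 and Pknox2). The shares of all genes that passed as higher in stromal cells in these contrasts were 10.3%, 7.51% and 14%. Meis2, a DNA-binding partner of Hox proteins, was at 62.8 CPM in stromal cells of Wild-type, against 137 and 144 CPM in those of Mgp-KO and Pd-KO. Past 2-fold over Wild-type were 6 of 9 in each knockout. Log2 ratios in Mgp-KO and Pd-KO were 2.30 and 2.43 for Pbx3, 1.10 and 2.12 for Pbx4, 1.98 and 2.45 for Meis1, 1.13 and 1.20 for Meis2, and 2.54 and 2.87 for Pknox2. Of all genes 23.6% and 28.8% passed in stromal cells. The TALE genes had medians of 1.13 and 2.12 over Wild-type. Between the knockouts their median was 0.13, and 1 of 9, Pbx4, passed, against 8.58% of all genes. TALE genes are long, 7 of the 9 with at least 10 kb of introns, and Meis2 has 191 kb. After the median of 200 genes of like span was taken off, Meis2 was at -0.42 and -0.65 over Wild-type. By size alone, 0 of 9 then reached 2-fold in Mgp-KO, 2 in Pd-KO (Pbx4 and Meis1) and 0 between the knockouts. Of the non-coding RNAs in the clusters, 4 could be tested. Hoxb3os, antisense to Hoxb2 and Hoxb3, was at 3.74, 3.63 and 2.64 CPM in stromal cells, 56.8, 74.8 and 140 CPM in mural cells and 32.3, 35.3 and 32.7 CPM in epithelial cells. In endothelial cells, where Hoxb2 was also above the stromal level, Hoxb3os was at 8.23, 6.30 and 9.73 CPM. Hotairm1, a non-coding RNA of HoxA, was lower in stromal than in endothelial and mural cells and higher than in epithelial cells. Hoxaas3 and Hoxd3os1 were lower in stromal than in endothelial cells, and Hoxd3os1 was higher than in epithelial cells. In stromal cells none of the 4 passed between Wild-type and a knockout. In mural cells Hoxb3os was higher in Pd-KO than in Wild-type, with a log2 ratio of 1.30 (1.08 to 1.53), or 0.92 (0.62 to 1.22) without the pericyte-like sub-cluster led by Ednrb.

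Among 23 transcription factors of limb and fat depots, 11 of 16 tested were higher in stromal than endothelial cells in all 3 libraries (Emx2, En1, Irx5, Prrx1, Prrx2, Shox2, Tbx15, Tbx18, Tbx5, Twist1 and Twist2), 5 higher than in mural cells, and 11 higher and 3 lower (Irx3, Irx5 and Lmx1b) than in epithelial cells. Of all genes, 10.3% passed as higher in stromal than endothelial cells and 7.51% as higher than in mural cells. Against epithelial cells 14% of all genes passed as higher and 12% as lower. Emx2, En1, Irx5, Prrx2 and Twist2 were higher than in mural cells, the class that shared the HoxC block. Tbx15, a marker of subcutaneous depots, had a stromal log2 ratio of 1.68 in Mgp-KO and 2.14 in Pd-KO over Wild-type. Pitx1 (1.35 and 1.70), a hindlimb gene, and Lmx1b (1.59 and 2.43), a gene of dorsal limb, passed in both, and Tbx5 (1.37) and Prrx1 in Pd-KO. In all, 3 and 5 of 17 passed over Wild-type, against 23.6% and 28.8% of all genes. Between the knockouts 0 of 17 passed, against 8.58% of all genes. After the same subtraction, by size alone, 2 reached 2-fold in Mgp-KO (Pitx1 and Tcf21). In Pd-KO 5 did (Pitx1, Emx2, Irx3, Tcf21 and Lmx1b), without Tbx15. Chromatin regulators of Hox genes, Polycomb and Trithorax members, numbered 17. Lower in stromal than endothelial cells were 3 (Bmi1, Cbx7 and Suz12), against 10.7% of all genes. Lower than in mural cells was 1 (Cbx7), against 8.5%, and lower than in epithelial cells was 1 (Ezh2), against 12%. Cbx7 (1.11 and 1.07) and Kdm6a (1.97 and 1.87) were higher in stromal cells of Mgp-KO and Pd-KO than of Wild-type. These were 2 of 17 in each knockout, against 23.6% and 28.8% of all genes. After that subtraction 0 of 17 reached 2-fold. None of 6 other clustered or ParaHox genes reached the minimum of 50 UMIs.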

How the data were processed

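The authors deposited raw UMI counts for all barcodes of 3 libraries. File headers name Cell Ranger 4 (Wild-type) and 7.1.0 (both knockouts), whereas the submitters' processing notes name 6.1.1 and GRCm39. The study's methods name version 6.1.1 with default parameters and the mm10 genome, without naming how introns were counted. Barcodes with at least 2000 UMIs and at most 10% mitochondrial UMIs were kept. Total counts were 184102026, 93212243 and 83942865. Cells were clustered on 2000 variable genes without Hox, Mgp and sex-linked genes, with 30 components, Harmony integration and Leiden resolution 0.5 (scanpy 1.11.5). Thresholds for naming clusters were set after the clustering was seen. Scrublet called 2.79%, 0.016% and 2.57% doublets, so it had not worked in Mgp-KO. Called doublets were kept. Counts were summed per class and library. A gene was tested with at least 50 UMIs over both groups and passed with a 2-fold ratio whose 95% exact interval excluded 1. Class and subset contrasts had to pass in all 3 libraries. After the span median was taken off, only the 2-fold size was used. Named were the 12 members with the highest CPM over all kept cells, as the mean of the 3 libraries. The members of largest ratio per contrast were also named, and others of note, the last chosen after their values were seen. Members and lists were chosen with earlier results of these data known. Scripts were tested on simulated data. Some genes are not reported here.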

Additional observations from a re-analysis of the deposited data

Results flagged for a closer look

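Hox levels in Wild-type classes outside the comparisons stood above the stromal level for several members. Hoxb5 was at 253.8 CPM (206 to 309, 99 UMIs) in the 92 neuron-like cells against 1.36 CPM in stromal cells and 24.4 CPM in free RNA. Hoxb3 was at 69.2 CPM against 7.40 and Hoxb6 at 35.9 CPM against 3.03 in the same cells. In cycling cells Hoxa9 was at 23.6 CPM against 17.5 in stromal cells, Hoxa10 at 21.7 against 16.4 and Hoxc10 at 81.3 against 69.5. Hoxa9 was at 28.6 CPM in adipocyte-like cells. Lymphatic endothelial cells had Hoxd9 at 95.8 CPM against 0.99 and Hoxd10 at 56.4 CPM against 0.07.

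Some members had a genotype ratio of opposite sign in another class than in stromal cells, with both intervals off 0. These differences were not tested. In Mgp-KO over Wild-type, the mural and stromal log2 ratios were -3.15 and 0.21 for Hoxa10, 0.68 and -0.38 for Hoxb2, and -1.32 and 0.39 for Hoxc4. In Pd-KO over Wild-type they were 0.93 and -0.15 for Hoxb2 and 0.56 and -0.27 for Hoxc8. Hoxd4 was at -0.78 in endothelial and 0.60 in stromal cells of Pd-KO. Without the pericyte-like sub-cluster, and so with fewer counts, the mural Hoxb2 intervals included 0 in both knockouts. Hoxc4 was then at -1.01 (-2.34 to 0.06) in Mgp-KO. Hoxc8 was at 0.60 (0.28 to 0.91) in Pd-KO but at -0.86 (-1.72 to -0.12) in Mgp-KO. With 1 library per genotype, no group had enough samples to look for a sample far from the others.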

How the results depend on the processing

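Of 58 single-gene results, 0 that passed 2-fold changed sign under the alternatives run. The 58 include the levels of the 12 highest members, whose sign cannot change. Class and subset ratios among them had been chosen for the same direction in all 3 libraries. They were recomputed in Wild-type only. The sign changed in 4 that had not passed, among them Hoxd9 in the Col18a1 subset (0.28 in female cells) and, in the Ccn5 fibroblasts, Hoxa5 (0.08 in female cells) and Hoxa10 (-0.28 in male cells). Of the recomputed values, 584 of 649 moved by less than their counting interval. Stromal subsets were not made again under Leiden resolution 1, no integration, the marker gate or Hox genes kept, so their single genes have no value there. The Wild-type share of groups 9 to 13 in stromal cells was 48.2% after subtracting 10% free RNA, 48.2% in female and 46.7% in male cells. Stromal over endothelial was -0.39 in female cells. Stromal over mural was -0.42 with a marker gate, -0.42 with the gate at 1000 UMIs, and -0.48 with set-apart sub-clusters kept, an alternative chosen after seeing the data. Stromal over epithelial was 1.66, 1.65 and 1.45 under the same settings, 2.18 after free RNA and 1.81 in male cells. Mgp-KO over Wild-type was -0.21 after free RNA, -0.34 scaled by the median gene and -0.10 after the span median. Pd-KO over Wild-type was -0.058, -0.21 and 0.13 under these, and 0.035 with equal subset weights, so its sign was not fixed. At a minimum of 200 UMIs, 7 of 17 members were lower in stromal than endothelial cells, against 9.48% of all genes. At 50 UMIs these were 11 of 24 and 10.7%. In Pd-KO over Wild-type, 3 of 20 members passed at 200 UMIs, against 24% of all genes. At 50 UMIs these were 6 of 28 and 28.8%. The cause was not tested, beyond fewer genes tested at the higher minimum. The mural ratios without the Ednrb sub-cluster were also an alternative chosen after seeing the data. No paired analysis was possible because each genotype had 1 library. Depth limited members under 50 UMIs, most of all in Mgp-KO endothelial and mural cells.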
